A study of Danio rerio with 170 samples.

Results

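A pair of perfluorooctane chemicals with fluorinated chains of equal length was compared directly in whole zebrafish embryos. PFAS 3 is potassium perfluorooctanesulfonate (PFOS), whose head group is a sulfonate, and PFAS 10 is perfluorooctanesulfonamide (FOSA), whose head group is a sulfonamide. The comparison was made on every library titled with either chemical, 4 of PFAS 3 and 4 of PFAS 10, which is 8 of the 70 libraries in the count table and 16 of the 170 samples of the series. Each library came from 1 pool of 10 Tropical 5D wildtype embryos, in static exposure from 6 to 48 h post fertilization (hpf) in Exposure Round 1, with 1% DMSO in every group. The 6 DMSO controls of the same round, labelled Control Round 1 here, are given beside both chemicals.

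The exposures differed in dose as well as in head group. PFAS 3 was given at 13.8 µM and PFAS 10 at 8 µM, since each dose was set by the chemical's own effect on later morphology. Each difference below is therefore between the exposures as dosed, and the part of the dose and that of the head group cannot be told apart. In whole embryos, fewer cells of a type and less RNA per cell cannot be told apart either. Replicates 1 to 4 of both chemicals were collected on the same 4 days, so each PFAS 10 library had a PFAS 3 library of its own day.

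PFOS and FOSA are chemically stable fluorinated surfactants, and FOSA is known as a precursor that animals can convert to PFOS. In vertebrate cells, misfolded cytosolic protein raises heat shock genes through heat shock factors. Several stresses, amino acid shortage and mitochondrial stress among them, raise ATF4 target genes through the integrated stress response. Chaperones of the endoplasmic reticulum and subunits of the proteasome are mainly under separate control. At this stage the zebrafish retina and lens are still differentiating, and many brain cells are dividing progenitors.

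Library totals ran from 18264077 to 24862149 counts in PFAS 3, from 17185806 to 27593597 in PFAS 10 and from 19538366 to 26415590 in the controls. Neither the totals (exact two-sided permutation p = 0.7714, n = 4 and 4) nor the number of genes with a count (exact p = 0.5143) separated the chemicals. The gene with the most counts, ENSDARG00000080337, took 24.6 to 25.1% of a PFAS 3 library and 25.8 to 27.5% of a PFAS 10 library, which do not overlap (exact p = 0.0286, the smallest that 4 against 4 libraries can give). Levels are CPM, the counts of a gene scaled to library size with TMM factors. Libraries are 3′ end libraries, so CPM are not compared between genes. Embryo tissues were present by their markers in both groups, such as krt4 of the epidermis, with group means of 9205 CPM in PFAS 3 and 8758 CPM in PFAS 10, and ckma of muscle, with 3647 and 3581 CPM. The photoreceptor marker GNAT2 had means of 0.557 and 0.771 CPM.

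PFAS 10 libraries stood far from the controls and PFAS 3 libraries stood near them. On the first principal component of log2 CPM, which held 37.3% of the variance among 14 libraries, PFAS 10 libraries scored between 21.7 and 37.1. The PFAS 3 libraries scored between −10.1 and −8.17 and the 6 controls between −15.3 and −8.71, so that PFAS 3 replicate 2 alone lay just past the controls. The PFAS 10 library of day 1, replicate 1, stood farthest out. Against the control of its own day, a PFAS 3 library differed by a root mean square of 0.284 to 0.332 on the log2 scale, whereas PFAS 10 libraries differed by 0.444 to 0.545. Pairs of controls from different days differed by 0.276 to 0.409.

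**Figure D1:**
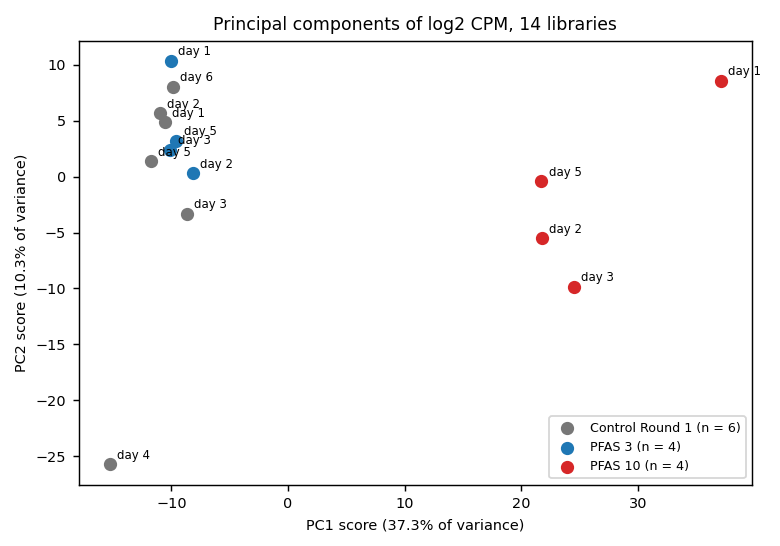
First and second principal component scores of log2 CPM over 10000 genes for the 6 Control Round 1, 4 PFAS 3 and 4 PFAS 10 libraries, each marked with its collection day. PFAS 10 libraries lie between 21.7 and 37.1 on the first component, whereas PFAS 3 libraries lie between −10.1 and −8.17, beside the controls.

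Of 21928 genes tested, 2457 differed between the chemicals (11.2%; edgeR quasi-likelihood test, Benjamini-Hochberg adjusted p-value under 0.05). Of these, 1210 genes (5.52% of those tested) were higher in PFAS 10 and 1247 (5.69%) were lower. Log2 fold changes, written as PFAS 10 over PFAS 3, were over 1 for 294 genes (1.34%) and under −1 for 182 (0.83%). The 4 libraries of one chemical lay wholly above the 4 of the other for 1908 of the differing genes, against 13.9% of all genes tested. Without PFAS 10 replicate 1, 1725 genes differed, and 1629 of them were among the 2457. With the replicate number as a block, 2336 genes differed.

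The same libraries against the 6 controls they share gave 9 genes for PFAS 3 (0.041% of genes tested) and 3088 for PFAS 10 (14.1%), of which 1591 were higher (7.26%) and 1497 lower (6.83%). All 9 genes of PFAS 3 were higher than in controls. No gene was called lower in PFAS 3 by edgeR, and DESeq2 called 10 genes in all. At an unadjusted edgeR p-value under 0.05, 483 genes (2.2%) were lower. That share is no larger than such a limit is expected to give in a single direction when no gene differs. In 95.0% of the 2457 genes that differed between the chemicals, the fitted PFAS 3 level was the nearer one to the controls, which held for 67% of all genes tested.

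A few heat shock genes were among the largest increases in PFAS 10. The inducible cytosolic chaperone hsp70.3 had 238, 79.1, 22.4 and 33.2 CPM in PFAS 10 replicates 1 to 4, and 2.78, 2.37, 1.65 and 2.02 CPM in PFAS 3. The controls held between 0.941 and 3.29 CPM, so every PFAS 10 library lay above every other library and PFAS 3 lay within the controls. The log2 fold change was 5.39 ± 0.43 (SE; edgeR adjusted p = 9.55e-16). HSP90AA1, the stress-inducible form of the cytosolic chaperone Hsp90, had 2463, 663, 287 and 403 CPM in PFAS 10 against 88.6, 54.7, 56.4 and 52 CPM in PFAS 3 (3.92 ± 0.31, edgeR adjusted p = 5.65e-16). The groups did not overlap, which for both genes was a condition for naming the largest changes. The highest library of each chemical was the one of day 1.

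The hsp70 family members hsp70.1, HSPA2 and hsp70l had log2 fold changes of 6.77, 5.32 and 5.25. They are close copies of hsp70.3, so the split of reads among them is uncertain. The Hsp70 co-chaperone dnajb1b was higher by 3.56 and SERPINH1 (ENSDARG00000019949), the collagen chaperone Hsp47, by 1.91. All of these genes had PFAS 3 means within 0.5 log2 of the controls except hsp70.1, which had a mean of 0.320 CPM in PFAS 3 and 0.701 CPM in the controls. The size of the change rested in part on PFAS 10 replicate 1. Without that library the log2 fold changes were 4.34 for hsp70.3, 2.84 for HSP90AA1, 4.74 for hsp70.1, 3.42 for HSPA2, 3.70 for hsp70l and 2.24 for dnajb1b, all still past the threshold. HSPA4 (ENSDARG00000004754), an Hsp110-type chaperone gene named with its value seen, went from 0.96 to 0.21 and lost its call (edgeR adjusted p = 0.488). The list of inducible heat shock genes had 12 of 40 tested members higher and 2 lower (hspb9 and a second HSPA4 gene, ENSDARG00000018989, at −0.24, a call lost in 8 alternatives), with a median log2 fold change of 0.29, beside −0.0012 over all genes, and 26 members were not called. That median was 0.09 with 9 members higher when PFAS 10 replicate 1 was left out.

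The small heat shock gene hspb9, a small chaperone of the alpha-crystallin type, had 10.8, 17.4, 9.45 and 17.7 CPM in PFAS 3 and 4.27, 4.61, 6.33 and 3.84 CPM in PFAS 10. The controls ran from 1.70 to 4.67 CPM. The PFAS 3 libraries thus lay above all the others, and PFAS 10 overlapped the controls. The direct log2 fold change was −1.53 ± 0.41 (edgeR adjusted p = 0.00637), while PFAS 3 against controls gave 2.07 (edgeR adjusted p = 0.00202) and PFAS 10 gave 0.54 (0.409).

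Genes of the integrated stress response rose as a group in PFAS 10. Of 35 tested members 25 were higher and 0 lower than in PFAS 3 (5.52% and 5.69% of all genes), with a median log2 fold change of 1.00. The same shares of all genes are to be set beside the list counts that follow. DDIT3, the pro-apoptotic transcription factor CHOP, had 99.6, 37, 47.9 and 48.2 CPM in PFAS 10, and 8.59, 11.1, 11.0 and 10.32 CPM in PFAS 3. Control libraries ran from 5.86 to 14.3 CPM, which covers all PFAS 3 libraries and none of PFAS 10. The log2 fold change was 2.5 ± 0.21 (edgeR adjusted p = 1.09e-14).

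The stress-induced nuclear protein gene nupr1b was higher by 2.00 ± 0.16, the transcription factor atf5b by 2.01 ± 0.18, and sesn2, which restrains the growth kinase mTORC1, by 3.01 ± 0.31. STC2 (ENSDARG00000056680), which encodes the secreted stanniocalcin 2, was higher by 2.04 and EIF4EBP3, an inhibitor of cap-dependent translation, by 1.44. Among members outside the rule for named genes and chosen with their values seen, atf4a, ASNS and TRIB3 had log2 fold changes of 1.00, 0.95 and 1.73, and the call of ASNS was lost without PFAS 10 replicate 1. Medians against the controls were 0.88 in PFAS 10 and −0.03 in PFAS 3, where no member was called. For DDIT3, nupr1b, atf5b, sesn2, STC2 and EIF4EBP3, all 4 PFAS 10 libraries lay above all 4 PFAS 3 libraries. For sesn2 this was a condition for naming the largest changes. Without PFAS 10 replicate 1, 20 members of the list were called higher, with a median of 0.79.

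A part of the amino acid transporters moved the same way. Of 40 tested members, 14 were higher in PFAS 10, 0 lower and 26 not called. The median log2 fold change was 0.26, and 12 members had a negative value. Against the controls the median was 0.08 in PFAS 10 and −0.04 in PFAS 3. SLC43A2 (ENSDARG00000061120), a carrier of large neutral amino acids, had 693, 636, 646 and 584 CPM in PFAS 10 and 200, 176, 205 and 209 CPM in PFAS 3. Here replicate 1 did not stand apart, and the log2 fold change was 1.70 ± 0.17 (edgeR adjusted p = 8.71e-12). The arginine and lysine carrier SLC7A3 (ENSDARG00000020645) was higher by 1.71, and the neutral amino acid carriers SLC1A4 and SLC1A5 by 1.60 and 1.02. Several of these genes are also ATF4 targets, and the lists share members.

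The smallest p-value of the whole comparison was that of MKNK2 (ENSDARG00000015164), a kinase of the translation factor eIF4E. It had 390, 142, 164 and 178 CPM in PFAS 10 and 42.3, 26.4, 43.2 and 32.2 CPM in PFAS 3 (2.6 ± 0.17, edgeR adjusted p = 2.16e-19). IGFBP1, which binds insulin-like growth factors and is raised by fasting, had 226, 100, 114 and 134 CPM against 25.6, 24.5, 14.4 and 24 CPM (2.69 ± 0.23, edgeR adjusted p = 1.85e-14). Neither gene overlapped between the chemicals, which for IGFBP1 was a condition for naming the largest changes. For both genes the PFAS 3 mean lay within 0.2 log2 of the control. BTG1, an antiproliferative gene, was higher by 0.82 ± 0.07 and BHLHE40, a stress- and clock-related repressor, by 1.58 ± 0.13.

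Fasting and growth brake genes had 12 of 32 members higher and 3 lower. PCK1, the rate-limiting enzyme of gluconeogenesis, rose by 1.65 and the transcription factor CEBPB by 1.38. TXNIP (ENSDARG00000036107), which limits glucose uptake, fell by 1.34 on the log2 scale, from a mean of 81.1 CPM in PFAS 3 to 32 CPM in PFAS 10. Glycolysis and hypoxia response genes had 16 of 49 members higher and 2 lower. The higher ones included VEGFA (ENSDARG00000103542), the main angiogenic growth factor, with 1.23, and the glycolytic genes ALDOC (ENSDARG00000019702) with 0.65 and PFKFB3 with 1.26. The related gene PFKFB4 was lower (−0.94 ± 0.15, edgeR adjusted p = 1.56e-06). Without PFAS 10 replicate 1, 9 genes of that list were higher and 1 was lower. Fatty acid oxidation and PPAR genes had 7 of 45 members higher and 2 lower, with a median of 0.07. Of the mitochondrial fatty acid importers, cpt1ab and CPT1B were higher by 0.86 and 1.09. The uncoupling protein gene UCP2 was lower (−0.93), while its relative ucp3 was higher (2.33) from a PFAS 3 mean of 0.427 CPM. The call of ucp3 was lost with the reads of flow cell run 64 alone.

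**Figure D2:**
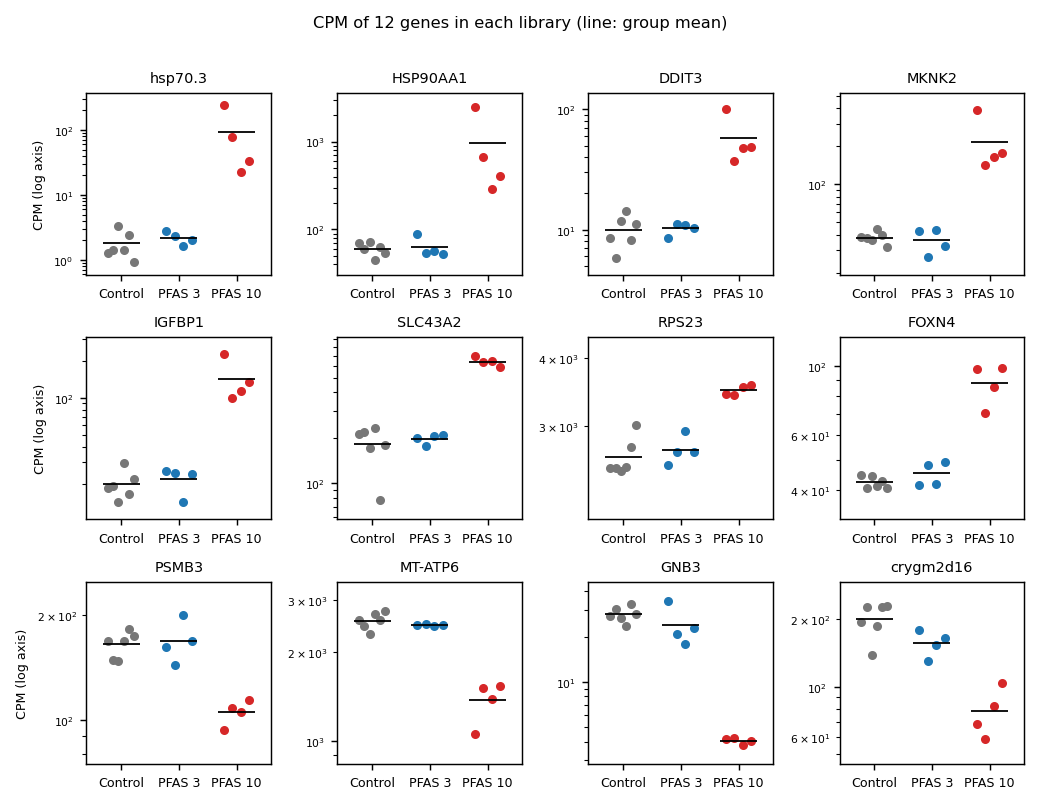
CPM, on log axes, of 12 genes in each of 6 control, 4 PFAS 3 and 4 PFAS 10 libraries, with the group mean as a line. In each panel the PFAS 10 points lie apart from the PFAS 3 points, for example 287 to 2463 CPM against 52 to 88.6 CPM for HSP90AA1 and 3.82 to 4.21 CPM against 17.9 to 34.7 CPM for GNB3.

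Proteasome subunit genes were lower in PFAS 10 almost as a block. Of 44 tested members 38 were lower and 0 higher, and the median log2 fold change was −0.50. PSMB3, a subunit of the catalytic core, had 93.7, 108, 106 and 115 CPM in PFAS 10 and 163, 144, 200 and 169 CPM in PFAS 3, with controls from 148 to 183 CPM. The chemicals did not overlap, and the log2 fold change was −0.68 ± 0.08 (edgeR adjusted p = 4.17e-09). The regulatory particle genes PSMC2, PSMD8 and PSMD11 (ENSDARG00000005134) were lower as well (−0.51, −0.70 and −0.75), as was the core gene PSMB4 (−0.53). The most negative member was PSMD11. Against the controls the list's median was −0.46 in PFAS 10 and 0.03 in PFAS 3. Of the 44, 32 were called lower without PFAS 10 replicate 1.

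The list of endoplasmic reticulum chaperones moved mostly opposite to most of the heat shock genes named above. Of 29 tested members 13 were lower in PFAS 10, 2 were higher and 14 were not called, with a median of −0.34. HSP90B1, the Hsp90 of the endoplasmic reticulum, had 129, 122, 92.3 and 123 CPM in PFAS 10 and 188, 176, 178 and 158 CPM in PFAS 3 (−0.59 ± 0.10, edgeR adjusted p = 2.22e-05). The calcium-binding chaperone genes calr3a and calr3b were lower too (−0.51 and −0.56), and so was the co-chaperone DNAJB11 (−0.67). SERPINH1 (ENSDARG00000019949), a collagen chaperone of this compartment that was counted with the heat shock genes, was higher by 1.91. The 2 members of the list called higher are no chaperones. They were XBP1, the transcription factor of the unfolded protein response, with 0.54 ± 0.07, and HERPUD1, a membrane protein of the degradation pathway, with 1.1, which was named with its value seen.

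Messages of the mitochondrial genome were lower in PFAS 10 than in PFAS 3. Of the 13 protein genes 10 were lower and 0 higher, with a median of −0.57. MT-ATP6, a subunit of ATP synthase, had 1058, 1515, 1388 and 1546 CPM in PFAS 10 and 2485, 2496, 2454 and 2484 CPM in PFAS 3 (−0.85 ± 0.07, edgeR adjusted p = 1.09e-14). The chemicals were wide apart, and all PFAS 3 libraries lay within the controls (2314 to 2757 CPM). The complex I genes MT-ND1 and MT-ND2 were lower by edgeR as well (−0.83 and −0.68). Together the 13 genes took 1.97 to 2.09% of a PFAS 3 library and 1.39 to 1.71% of a PFAS 10 library (exact two-sided permutation p = 0.0286, n = 4 and 4, the smallest possible). Of the 64 respiratory chain genes of the nuclear genome 5 were lower and 0 higher, with a median of −0.11. That count ran from 2 to 10 over the alternatives, and lower genes made up 5.69% of all genes.

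Ribosomal protein genes differed little in size and nearly all in one direction. Of 78 tested members 41 were higher in PFAS 10 and 0 lower, with a median of 0.22 and all members between −0.16 and 0.40. RPS23, of the small subunit, had 3440, 3421, 3531 and 3568 CPM in PFAS 10 and 2556, 2692, 2948 and 2694 CPM in PFAS 3 (0.36 ± 0.06, edgeR adjusted p = 8.13e-06). RPLP0 and RPS12 were higher by 0.30 and 0.35. The medians against the controls were 0.30 in PFAS 10 and 0.07 in PFAS 3. With the replicate number as a block 69 members were called, and without PFAS 10 replicate 1 27 were. The direction held under each scaling, with 31 to 50 members higher and 0 lower. Other abundant messages were also higher in PFAS 10, such as eef1a1l1, which encodes an elongation factor (0.33), and the nuclear RNA malat1 (0.43 ± 0.05). The 50 highest genes took 44.3 to 45.2% of a PFAS 3 library and 46.2 to 47.8% of a PFAS 10 library (exact two-sided permutation p = 0.0286, n = 4 and 4, the smallest possible). Of 11 RNA quality and nuclear RNA genes 4 were higher and 2 lower, and their summed level was 39077 to 41494 CPM in PFAS 3 and 50098 to 56922 CPM in PFAS 10. The part of these values in the ribosomal and mitochondrial results was not tested.

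**Figure D3:**
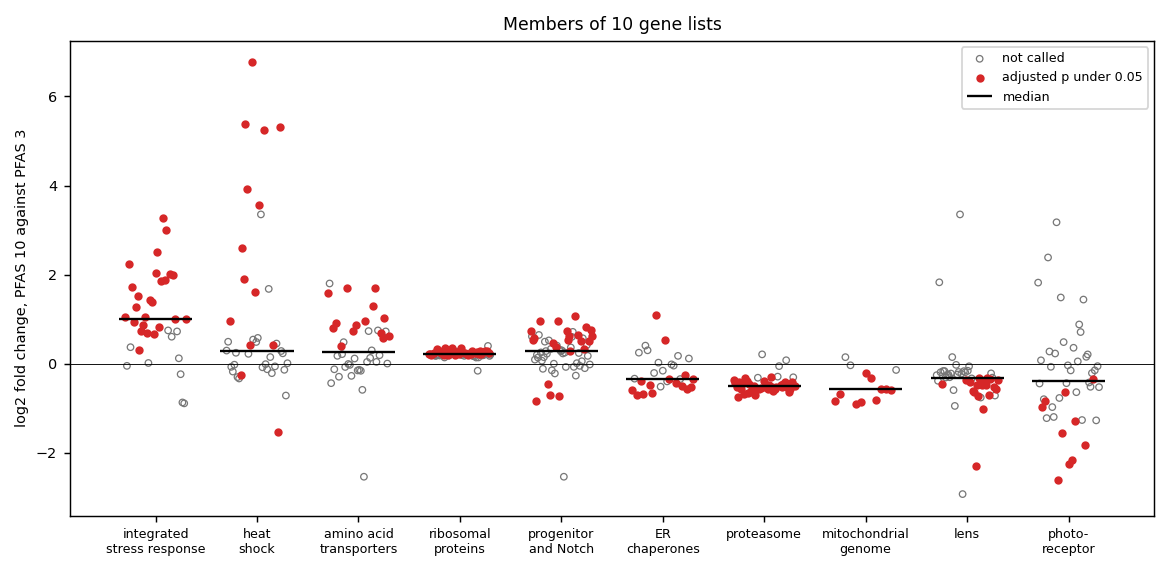
Log2 fold change of PFAS 10 against PFAS 3 for each tested member of 10 gene lists, filled where the edgeR adjusted p-value was under 0.05, with the median as a line. The integrated stress response list has a median of 1.00 and the proteasome list one of −0.50.

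Genes of the eye were among the furthest down in PFAS 10. GNB3 encodes a G protein beta subunit used in cone phototransduction. It had 4.17, 4.21, 3.82 and 4.03 CPM in PFAS 10 and 34.7, 20.9, 17.9 and 22.7 CPM in PFAS 3, with controls from 23.5 to 33 CPM. The PFAS 10 libraries lay close together, and the log2 fold change was −2.57 ± 0.25 (edgeR adjusted p = 1.86e-12). None overlapped PFAS 3, which was a condition for naming the largest changes. GNG13, a G protein gamma subunit of retinal bipolar and taste cells in mammals, was lower as well (−1.73 ± 0.15). The retinoschisin gene rs1a and the recoverin gene rcvrna had −2.6 and −2.16, both from PFAS 3 means under 10 CPM. The photoreceptor transcription factor crx fell by 0.83 on the log2 scale, from 63.2 to 86.2 CPM in PFAS 3 down to 40.9 to 42.9 CPM in PFAS 10. Of 44 photoreceptor and phototransduction genes tested, 10 were lower, 0 higher and 34 not called (median −0.38), and 15 had a positive log2 fold change. Without PFAS 3 replicate 1, 6 were lower. The summed level of the list was 1151 to 1260 CPM in PFAS 3 and 1083 to 1178 CPM in PFAS 10. These ranges overlap (exact two-sided permutation p = 0.1143, n = 4 and 4).

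Of 48 lens crystallin and lens genes 19 were lower in PFAS 10 and 0 higher, with a median of −0.32. crygm2d16, a gamma crystallin, had 68.5, 58.4, 81.9 and 104 CPM in PFAS 10 and 179, 130, 153 and 166 CPM in PFAS 3 (−1.01 ± 0.21, edgeR adjusted p = 0.000295). The ranges did not overlap. The gamma crystallin genes crygm2d11 and crygm2d6 were also lower (−2.29 and −0.71), and so was MIP (ENSDARG00000013963), the lens water channel (−0.46). Gamma crystallin genes are close copies, so the split of reads among them is uncertain. CRYAA, an alpha crystallin, was not called (−0.22, edgeR adjusted p = 0.455). Without PFAS 3 replicate 1, 10 genes of the list were called lower. The 3 lens markers summed to 189 to 250 CPM in PFAS 3 and 140 to 154 CPM in PFAS 10.

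Neural progenitor genes were higher more often than lower. Of 62 neural progenitor and Notch genes 19 were higher and 4 lower, with a median of 0.30. FOXN4, a transcription factor of retinal and spinal progenitors, had 98, 70.6, 85.6 and 98.8 CPM in PFAS 10 and 41.5, 48.3, 42 and 49.3 CPM in PFAS 3 (0.96 ± 0.10, edgeR adjusted p = 3.79e-11). The proneural gene ascl1a was higher by 0.97, the progenitor filament gene nes by 0.82, and the receptors NOTCH1 (ENSDARG00000103554) and NOTCH3 by 0.75 and 0.55. The 4 lower members were FABP7, NEUROD1 and 2 genes named NEUROD6. FABP7 is a fatty acid binding protein of radial glia and the other 3 encode neuronal differentiation factors. The calls of the NEUROD6 genes were lost in 5 and 14 alternatives, among them without PFAS 10 replicate 1. The Notch target her4.1 did not differ (0.01, 95% interval −0.27 to 0.30).

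Of 62 synaptic neuron markers 9 were lower and 1 higher, with a median of −0.17, and without PFAS 3 replicate 1 5 were lower. The higher one was ELAVL3, an RNA-binding protein of early neurons (0.18, edgeR adjusted p = 0.0248, a call lost in 4 alternatives). The 3 neuron markers, which include ELAVL3, summed to 905 to 925 CPM in PFAS 3 and 961 to 1014 CPM in PFAS 10. These ranges did not overlap, but the controls, at 883 to 1031 CPM, covered both. The growth cone genes gap43 and STMN2 (ENSDARG00000033234) had −0.41 and −0.48, and ELAVL4, a neuronal RNA-binding protein, −0.38. Cell division genes had 13 of 50 members lower and 2 higher. The replication genes FEN1, TYMS and PCNA were lower (−0.65, −0.67 and −0.39), whereas CCND1, which encodes cyclin D1 of the G1 phase, was higher (0.44 ± 0.07). Leaving out PFAS 10 replicate 1 gave 5 lower and 3 higher division genes.

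Muscle, cartilage and heart differed in a few genes each. AMPD1, the AMP deaminase of skeletal muscle, had 31.3, 41.6, 37.2 and 41.2 CPM in PFAS 10 and 74.3, 98.3, 76.4 and 105 CPM in PFAS 3 (−1.23 ± 0.12, edgeR adjusted p = 3.29e-12). The muscle gene igfn1.3 was lower (−1.87 ± 0.20). The list of 74 sarcomere genes had 12 lower and 5 higher members and a median of −0.06, with 3 higher when PFAS 10 replicate 1 was left out. Over all genes 5.52% were higher, near the share of higher sarcomere genes, and 5.69% were lower. MATN1, a cartilage matrix protein, had the most negative value of the rule's genes (−2.67 ± 0.49), from 2.81 to 7.66 CPM in PFAS 3 down to 0.427 to 0.864 CPM in PFAS 10. Of 37 cartilage and tooth matrix genes 7 were lower, 1 higher and 29 not called, with a median of −0.05. The summed level of that list overlapped between the chemicals (exact two-sided permutation p = 0.3143, n = 4 and 4). nppa, the atrial natriuretic peptide gene that rises in a strained heart, had 51, 35.6, 30.8 and 37.6 CPM in PFAS 10 and 17.7, 17.2, 13.4 and 19.9 CPM in PFAS 3 (1.18 ± 0.16, edgeR adjusted p = 8.2e-08). The cardiac transcription factor gene GATA6 was higher by 1.00. Of 31 heart genes 5 were higher and 0 lower, and 3 were higher without PFAS 10 replicate 1.

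Lists of xenobiotic, lipid and redox genes moved little or in both directions. Of 34 cytochrome P450 and xenobiotic genes 2 were higher and 1 lower, a share near that of all genes. CYP1B1, an aryl hydrocarbon receptor target, was higher by 1.23 ± 0.21. NRF2 oxidative stress genes had 6 of 34 members higher and 4 lower, or 3 and 2 without PFAS 10 replicate 1. The factor's own gene copy nfe2l2b was higher by 2.62 and the autophagy adaptor SQSTM1 by 1.35, while HMOX1, the heme oxygenase that NRF2 raises, was lower (−0.81 ± 0.23, edgeR adjusted p = 0.0136), a call lost in 4 alternatives. Of 28 cholesterol synthesis genes, 4 were lower, among them HMGCS1 and MVD (−0.98 and −1.21), which encode enzymes of the mevalonate pathway. Of 22 genes of p53 and its targets 6 were higher and 0 lower. Without PFAS 10 replicate 1 that count was 2, and without PFAS 3 replicate 3 it was 3.

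**Figure D4:**
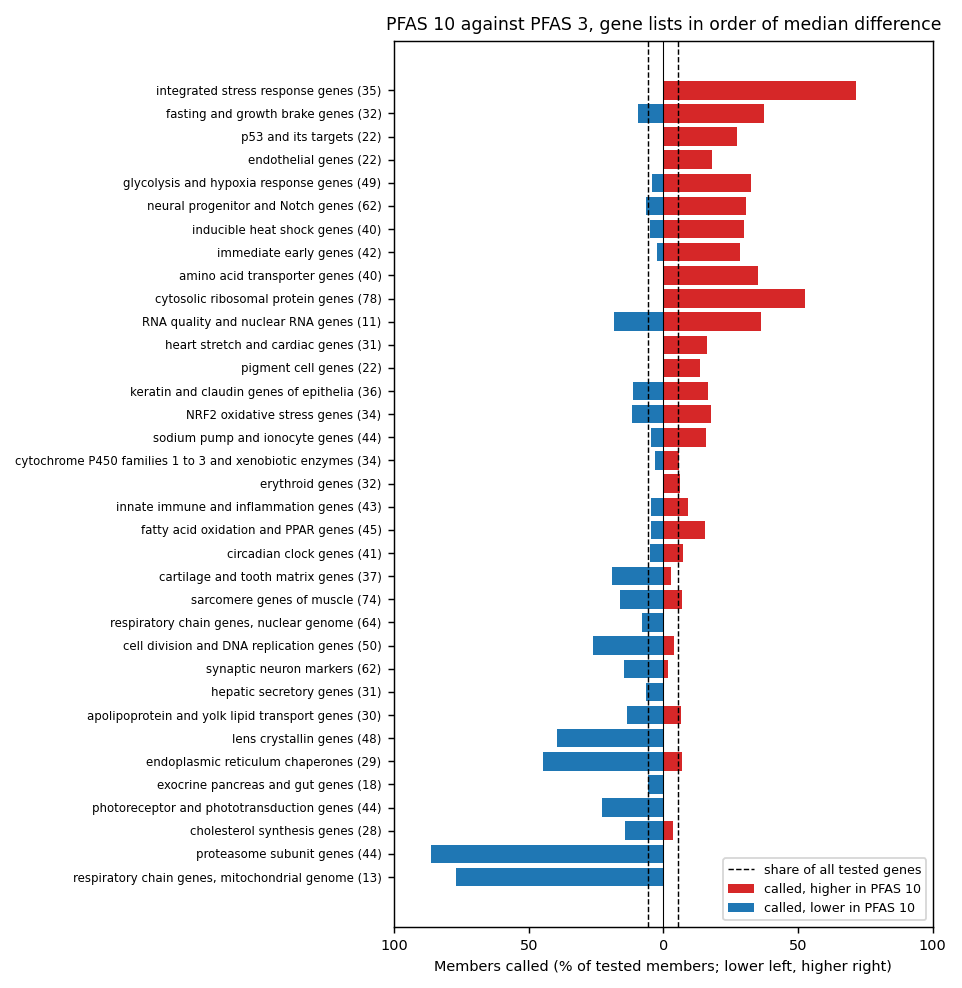
Share of tested members called higher (right) or lower (left) in PFAS 10 than in PFAS 3 for 35 gene lists ordered by median log2 fold change, with the number tested in brackets. Dashed lines mark the shares of all tested genes, 5.52% higher and 5.69% lower.

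The 9 genes called in PFAS 3 against controls fell into 2 sets, and 8 of them had all PFAS 3 libraries above all 6 controls. The same libraries chose these genes, so their height over the controls is no separate result. For 5 genes no difference between the chemicals was called. FOS, the immediate early transcription factor gene, had 32.5, 25.6, 15.6 and 14.7 CPM in PFAS 3 and 38.8, 15.3, 12.0 and 16.3 CPM in PFAS 10. Controls ran from 4.15 to 9.47 CPM. Both chemicals lay above all controls, and they overlapped each other (−0.11, 95% interval −0.95 to 0.72).

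TOB1, an antiproliferative gene, gave the narrowest bound. It had 92.7, 90.3, 93.6 and 93.7 CPM in PFAS 3 and 103, 89, 87.4 and 79.5 CPM in PFAS 10, with controls from 52.5 to 70.33 CPM. The difference was −0.04 with a 95% interval of −0.25 to 0.16, beside log2 fold changes over controls of 0.54 for PFAS 3 (edgeR adjusted p = 0.00183) and 0.50 for PFAS 10 (edgeR adjusted p = 4.07e-05). The nuclear receptor gene NR4A1 had an interval of −0.49 to 0.31. The paralogs ponzr3 and ponzr4 had intervals of −0.72 to 0.58 and −0.63 to 0.67, which reach past 0.5 on the log2 scale in both directions.

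The other 4 genes were higher in PFAS 3 than in PFAS 10, and none of their libraries overlapped between the chemicals. The PFAS 3 libraries in that comparison are those by which the genes were chosen as high. One is hspb9, described above. DHRS13 (ENSDARG00000111240), a dehydrogenase of the short-chain family, had 39.6, 37.5, 47.9 and 44.8 CPM in PFAS 3 and 15.4, 16.1, 13.7 and 20.9 CPM in PFAS 10, with controls from 16 to 25.5 CPM. Its log2 fold change was −1.37 ± 0.23 (edgeR adjusted p = 5.48e-06), and PFAS 10 overlapped the controls. PRKG1, the cGMP-dependent kinase, was above controls in both chemicals by edgeR, by 1.09 in PFAS 3 and 0.54 in PFAS 10, and differed between them (−0.54 ± 0.16, adjusted p = 0.0159). That call was lost without PFAS 3 replicate 3, without PFAS 10 replicate 2 and with the reads of 1 flow cell alone. The gene si:dkey-221j11.3, given no function here, had −0.70 ± 0.19, and its call was lost without PFAS 3 replicate 1.

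**Figure D5:**
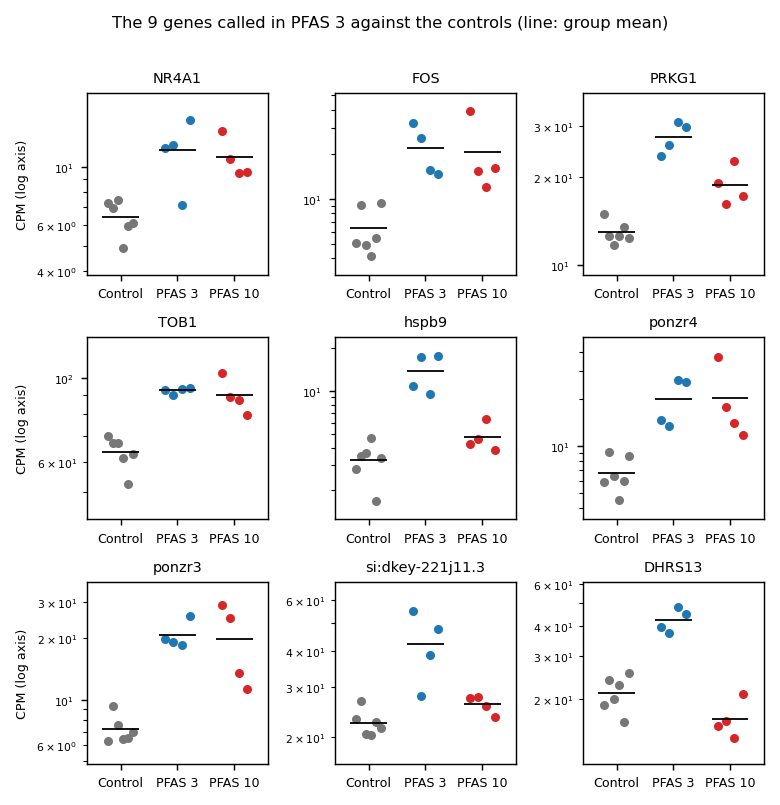
CPM, on log axes, of the 9 genes called in PFAS 3 against the controls, in each control, PFAS 3 and PFAS 10 library, with the group mean as a line. FOS and TOB1 lie above the controls in both chemicals, whereas hspb9 and DHRS13 are raised in PFAS 3 while PFAS 10 overlaps the controls.

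The immediate early gene ATF3, which is also an ATF4 target, stood between these sets. It had 133, 40.4, 46.8 and 58.1 CPM in PFAS 10, 11.2, 18.2, 10 and 19.3 CPM in PFAS 3 and 4.73 to 9.36 CPM in the controls. All PFAS 3 libraries lay above all controls, but the difference was not called (1.02, edgeR adjusted p = 0.183), whereas PFAS 10 exceeded PFAS 3 (2.24 ± 0.28, edgeR adjusted p = 3.31e-09). Of 42 immediate early genes 12 were higher in PFAS 10 than in PFAS 3 and 1 was lower, among them FOSL1, another Fos family factor, with 1.96. Leaving out PFAS 10 replicate 1 gave 7 higher. The list's median over the controls was 0.24 in PFAS 3 and 0.63 in PFAS 10.

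For 4713 genes (21.5% of those tested) the 95% interval of the difference lay inside −0.5 to 0.5 on the log2 scale. Of these, 536 were called in PFAS 10 against the controls, 2 in PFAS 3 and 303 between the chemicals, so an interval inside that bound does not mean that a gene did not differ. Examples are the Hippo effector gene YAP1, with a difference of 0.10 ± 0.06, and the collagen gene COL1A2 with −0.12 ± 0.05. The median width of the interval over all genes was 1.15.

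Other sulfonates and sulfonamides of the round are set beside these values without a test, since their doses differ. They are PFAS 5 (perfluoroheptanesulfonic acid), a sulfonate, at 100 µM (n = 3, with replicate 1 left out), and the sulfonamides PFAS 6 (N-ethylperfluorooctanesulfonamide) at 100 µM and PFAS 11 (perfluorohexanesulfonamide) at 28 µM (n = 4 each). GNB3 had means of 30.4 ± 7.77 CPM (SD) in PFAS 5, 15.6 ± 3.86 in PFAS 6 and 3.84 ± 1.27 in PFAS 11. HSP90AA1 had 60.3 ± 2.1, 57.9 ± 10.5 and 65.4 ± 10.8 CPM, beside the 63 ± 17.2 CPM of PFAS 3. DHRS13 had 43.9 ± 12.5, 45.7 ± 16.1 and 20.1 ± 4.36 CPM, beside means of 42.5 CPM in PFAS 3 and 16.5 CPM in PFAS 10. MKNK2 had 36.9 ± 3.01, 39.8 ± 6.65 and 129 ± 10.6 CPM. These genes were chosen by no stated rule and do not stand for the rest. PFAS 11 lay near PFAS 10 in some genes and near PFAS 3 in others. The mean of rs1a was 1.57 CPM in PFAS 11, beside 1.44 in PFAS 10 and 8.92 in PFAS 3. For PSMC2 it was 157 CPM in PFAS 11, beside 116 in PFAS 10 and 164 in PFAS 3.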

How the data were processed

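Per the study's methods, the authors made QuantSeq 3′ mRNA libraries from pools of whole embryos, split each library between a pair of flow cells, aligned reads to GRCz11 with STAR and counted them per gene and strand with HTSeq, for which versions are not given in the sources used here. The deposited values used are raw counts per gene, 1 column for each library and flow cell. The deposited table that lacks genes with low counts was used for 1 alternative. Deposited fold changes, p-values, normalized values and enrichment tables were not used.

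Both columns of a library were summed. Counts of 69 libraries (PFAS 5 replicate 1 left out, as in the study) were filtered with filterByExpr (minimum count 10, minimum total 15), which kept 21928 of 32520 genes, scaled by TMM and fitted once with edgeR 4.0.16 in R 4.3.3. Genes were called at a Benjamini-Hochberg adjusted p-value under 0.05 by the quasi-likelihood test. Log2 fold changes are PFAS 10 over PFAS 3, with the SE from the test's F and 95% intervals. Principal components used 10000 genes of log2 CPM with a prior count of 2. The fit was tested on simulated counts. Replicates of PFAS 3 and of PFAS 10 were run on different days. The fit also held the libraries of Exposure Round 2, which the study collected on the same day. The spread behind the p-values therefore mixes pools of the same day and pools of different days.

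The study's sampling record gives PFAS 3 and PFAS 10 replicates of 1 number the same collection day, so the numbers pair the libraries. Deviations from the group means correlated across 7809 genes by 0.196, 0.200, 0.032 and 0.064 for replicates 1 to 4.

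Genes named were the 12 largest changes in each direction with libraries that did not overlap, those called in PFAS 3 against controls, the 6 smallest p-values of each list and direction, and the 6 narrowest intervals among genes called in PFAS 10, of which a part is given. Genes named outside the rule are marked so or are cell type markers, and NEUROD1, NEUROD6, both HSPA4 genes and ELAVL3 were named with their values seen. The comparison and the 35 gene lists were chosen with earlier results of these data known. Symbols came from the name table for 29201 genes, and those in capitals are the names of human counterparts. The alternatives were another scaling, filter, test, flow cell, set of libraries, replicate block and leaving out each replicate. Some named genes are not reported here.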

Additional observations from a re-analysis of the deposited data

Results flagged for a closer look

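Of 366 sets of values from 1 group, 37 held a library far from the rest of its group by Dixon's criterion. Chance alone gives about 1 in 20 of all 366 sets. The sets are not independent, since list sums and single genes come from the same libraries. PFAS 10 replicate 1 was the high library in the summed CPM of the inducible heat shock genes (9978 CPM, next 6501), the integrated stress response genes (2236 CPM, next 1452) and the amino acid transporter genes (2222 CPM, next 1839). It was also high in hsp70.1 (114.1 CPM), HSPA2 (233.3 CPM), hsp70l (179.2 CPM), dnajb1b (38.73 CPM), SERPINH1 (271.7 CPM), atf5b (65.92 CPM) and atf4a (280.4 CPM). The same library stood above the other PFAS 10 libraries in MKNK2 (389.9 CPM), ALDOC (239.6 CPM), SLC1A4 (153.0 CPM), BHLHE40 (53.88 CPM), FOS (38.83 CPM) and the HSPA4 gene ENSDARG00000004754 (161.8 CPM).

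Other PFAS 10 libraries stood apart in fewer values. Replicate 2 was low in summed lens crystallin genes (8666 CPM, next 10180) and stood apart in NEUROD6 (5.056 CPM), replicate 3 was high in rs1a (2.136 CPM) and replicate 4 in PSMD8 (72.26 CPM). In PFAS 3, replicate 1 was high in HSP90AA1 (88.59 CPM), replicate 2 low in summed amino acid transporter genes (994.7 CPM, next 1070) and high in VEGFA (11.67 CPM), and replicate 3 low in IGFBP1 (14.38 CPM) and high in the HSPA4 gene ENSDARG00000018989 (114.1 CPM). PFAS 3 replicate 4 was high in ponzr3 (25.83 CPM) and eef1a1l1 (3377 CPM) and stood apart in TRIB3 (10.32 CPM).

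Among the controls, replicate 5 had a second principal component score of −25.74, with the next control at −3.308. Control replicate 4 stood apart in DNAJB11 (35.6 CPM), STC2 (15.38 CPM), SLC7A3 (19.42 CPM) and SLC1A4 (68.4 CPM), replicate 6 in HMGCS1 (15.9 CPM) and crx (66.11 CPM), replicate 2 in MIP (86.97 CPM) and replicate 5 in ELAVL3 (758.7 CPM).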

How the results depend on the processing

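The number of genes that differed between PFAS 10 and PFAS 3 was 1725 to 2311 when 1 library was left out and 1883 to 2822 under the other alternatives, with DESeq2 giving 2822. Every gene shared with the 2457 kept its direction in each of the 21 alternatives. These refit the same libraries or most of them, so a gene called in both fits could hardly change direction. In the paired fit, with the replicate block on the 8 libraries, 2336 genes were called, 2010 of them among the 2457, and 2614 with a replicate block by collection day over the Round 1 libraries. PFAS 3 against the controls gave 4 genes with robust moderation, which was chosen after seeing the data, and 15 with a replicate block by collection day and only the 4 controls of these days. It gave 4 to 10 genes when 1 library was left out, with 4 without PFAS 3 replicate 4; the cause was not tested. Higher genes were 49.2% of the calls, 50.1% with DESeq2 size factors, 45.5% with upper quartile scaling and 43.8% without ENSDARG00000080337. Over all pairs of an alternative and 1 of the 97 called genes given in the text, the call was kept in 1992 pairs and lost in 45. Genes left out of the text are not in that count, nor are PFKFB4 and ucp3. Most genes in it were named for small p-values or large changes in the main fit. The alternatives reuse most of the same libraries, so that count cannot show how firm calls are in general. Of all 2457 called genes, the share also called was lowest without PFAS 10 replicate 1, at 66.3%. It was highest with DESeq2 size factors, at 99.4%. Over pairs of an alternative and a gene list, counts moved by over 1.5 times in 15 for higher and 18 for lower members. PFAS 3 against controls was not run without PFAS 10 replicates, nor the reverse, and promoter motifs were not searched. The interval of a median gene, 1.15 wide on the log2 scale, narrowed to 0.387 where mean log2 CPM was over 5, so depth limits what can be said of low genes.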
